A study of Mus musculus with 1279 samples.

Results

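The genes described here are 7 surface antigens used to recognise adventitial and progenitor-type fibroblasts, namely Pi16, Dpp4, Ly6a, Ly6c1, Cd34, Cd248 and Thy1. They were taken by name, 7 of the 46517 genes of the count table, and each symbol corresponded to exactly 1 Ensembl row. The rule that names them uses no measured value, although it was set with earlier results of these data known. All 7 had counts in the heart: the share of the 1279 cells with at least 1 read was 96.4% for Cd34, 92.7% for Ly6a, 91.7% for Pi16, 85.8% for Cd248, 41.9% for Ly6c1, 24.4% for Thy1 and 9.46% for Dpp4.

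Fibroblasts of the vessel adventitia, the loose outer sheath of arteries and veins, are known in many organs for carrying Pi16 and Dpp4 at the surface together with Ly6a (Sca-1) and Cd34, and cells with these antigens can give rise to other fibroblasts in culture and after injury. Pi16 is a membrane-anchored protein of the cysteine-rich secretory protein family. Dpp4 (CD26) is a serine peptidase that trims dipeptides from chemokines and incretins. Ly6a and Ly6c1 are small lipid-anchored proteins of the Ly6 family. Cd34 is a sialomucin of haematopoietic progenitors, endothelium and many fibroblasts, Cd248 (endosialin) is a C-type lectin-like receptor of stromal cells and pericytes, and Thy1 (CD90) is a lipid-anchored immunoglobulin-family protein found on neurons, T cells and mesenchymal cells.

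The cells came from hearts of male mice aged 10 to 20 weeks, were sorted into plates and sequenced with Smart-seq2, a full-length cDNA method without molecular identifiers. C57BL6 wild-type mice gave 45.4% of the cells, sorted with antibodies to PDGFRα or PDGFRβ. PdgfrbGFP gave 28.5%, Cspg4dsRED 12.7% and Acta2GFP 13.4%. These 3 transgenic lines express a fluorescent protein under regulatory sequence of Pdgfrb, Cspg4 or Acta2, so each sort enriched cells in which that sequence is active, mural cells among them. Cells positive for the endothelial antigen CD31 were gated out in every strain. Each cell is labelled with a cluster number. Clusters 1 to 5 are fibroblasts, and clusters 6 to 8 are taken here as mural cells, the smooth muscle cells and pericytes of vessel walls. Clusters 1 to 8 held 5.47%, 17.1%, 8.76%, 18.2%, 22.8%, 3.05%, 9.23% and 15.3% of the 1279 cells. No animal is named in the labels, so the strain served as the replicate, and strain, sort and plate cannot be told apart. The clusters had been derived from the same counts, so p-values between them are too small to an unknown degree.

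Sequence from the reference shows where these genes lie and which of them share letters. On GRCm38, Pi16 (ENSMUSG00000024011) lies at chr17:29317680-29330593 on the plus strand. Dpp4 (ENSMUSG00000035000) occupies chr2:62330073-62412231 on the minus strand. Ly6a (ENSMUSG00000075602, chr15:74994877-74998031) and Ly6c1 (ENSMUSG00000079018, chr15:75044018-75048830) are minus-strand neighbours in the Ly6 cluster. Cd34 (ENSMUSG00000016494) is at chr1:194938819-194961279, Cd248 (ENSMUSG00000056481) at chr19:5068078-5070682 and Thy1 (ENSMUSG00000032011) at chr9:44043384-44048579, all on the plus strand. Reads were 50 bases long, and 32.8% of the distinct 50-base stretches in Ly6c1 transcripts also occur in transcripts of another gene. Most of these are shared with Ly6c2, and most of the rest with the member Ly6a. The shared stretches of Ly6a are in turn mostly those of Ly6c1. The share was 18.97% for Ly6a, 3.88% for Pi16, 2.92% for Dpp4, 2.14% for Cd34 and 0% for Cd248 and Thy1. The first 100 coding bases of Ly6c1 (transcript ENSMUST00000065408.15) and of its neighbour Ly6c2 (ENSMUST00000100542.9) are printed because they bear on which gene a read is counted for, with the 6 differing bases in capitals.
Ly6c1: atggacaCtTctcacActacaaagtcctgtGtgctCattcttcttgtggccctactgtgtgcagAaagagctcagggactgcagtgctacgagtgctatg
Ly6c2: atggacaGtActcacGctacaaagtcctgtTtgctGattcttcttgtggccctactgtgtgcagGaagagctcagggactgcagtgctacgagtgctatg
Over all 396 coding bases the pair differs at 9, an identity of 97.7%. The table nevertheless gave reads of Ly6c2 in 9.77% of cells, with at most 14 in a cell, and 24106 reads of Ly6c1. Ly6a, the other gene that shares stretches with Ly6c1, had 178391 reads. How the authors' counting treated reads that match more than 1 gene was not stated. The Ly6c1 and Ly6a values carry that uncertainty, and whether they are independent of each other was not tested.

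Genes that lie antisense to a member also share letters with it. Exons of Gm16897 overlap those of Cd34, exons of Gm13561 those of Dpp4 and exons of AC162182.1 those of Pi16, each on the opposite strand. Smart-seq2 libraries do not mark strand, so in those bases a read of the member and of its antisense partner cannot be told apart. These stretches make up 2.03% of the exon length of Cd34, 3.67% of Dpp4 and 3.49% of Pi16.

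Promoter sequence from RefSeq (GRCm38.p6) was matched for 4 of the 7 members, Pi16, Dpp4, Ly6c1 and Cd34. The bases directly upstream of the start are shown for the 3 of them whose levels were all highest in cluster 4 and whose upstream window lay outside annotated exons. Capitals mark matches to the TATA box (TATAAA), the CCAAT box (CCAAT), the AP-1 motif (TGANTCA) or the CACCC box (CACCC), each searched on both strands, and no match of 1 motif overlapped another.
Dpp4, chr2:62412232-62412481, minus strand: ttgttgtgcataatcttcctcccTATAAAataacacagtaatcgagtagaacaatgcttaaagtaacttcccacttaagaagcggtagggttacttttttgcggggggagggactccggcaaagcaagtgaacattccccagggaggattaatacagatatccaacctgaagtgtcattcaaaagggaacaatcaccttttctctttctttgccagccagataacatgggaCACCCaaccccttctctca
Ly6c1, chr15:75048838-75049087, minus strand: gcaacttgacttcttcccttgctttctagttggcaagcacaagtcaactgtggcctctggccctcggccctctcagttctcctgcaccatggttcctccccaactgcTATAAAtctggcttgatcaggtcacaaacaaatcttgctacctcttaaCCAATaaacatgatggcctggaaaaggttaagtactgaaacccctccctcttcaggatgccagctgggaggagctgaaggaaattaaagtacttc
Cd34, chr1:194938571-194938818, plus strand: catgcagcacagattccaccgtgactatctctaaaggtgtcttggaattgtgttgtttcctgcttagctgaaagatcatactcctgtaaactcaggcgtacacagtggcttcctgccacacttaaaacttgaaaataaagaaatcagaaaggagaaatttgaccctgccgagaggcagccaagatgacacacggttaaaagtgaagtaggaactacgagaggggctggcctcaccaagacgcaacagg
Within 250 bases of the start, Dpp4 held 1 TATAAA and, 19 bases upstream, 1 CACCC. The printed Ly6c1 window held 1 TATAAA and, 95 bases upstream, 1 CCAAT. A second RefSeq start site of Ly6c1 had a window with 3 CACCC and neither TATAAA nor CCAAT. Pi16 held 1 CCAAT 64 bases upstream and 1 CACCC further upstream, and the Cd34 window held none of the 4 motifs. None of the 4 motifs was found in every window. Among 32851 promoter windows of the same length, 12.4% held the TATA box, 33.8% the CCAAT box, 6.75% the AP-1 motif and 52.01% the CACCC box.

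Cells held 46268 to 1302397 gene counts (median 274504), and the median per cluster ran from 167874 in cluster 8 to 349816 in cluster 4. Summed markers of endothelial cells (7 genes) had cluster means of 7.84 to 118.05 CPM (read counts scaled to equal depth), those of immune cells (5 genes) 1.54 to 61.98 CPM, of Schwann cells (3 genes) 0.108 to 3.90 CPM and of mesothelial cells (4 genes) 0 to 0.0279 CPM. Those of cardiac muscle (Myh6, Tnnt2, Tnni3 and Actc1) had the highest cluster mean of these other cell types. In clusters 3 and 4, however, endothelial markers at 32.3 and 60.1 CPM exceeded cardiac markers at 22.5 and 43.8 CPM. For cardiac markers, mural clusters 6, 7 and 8 had 712 ± 733, 318 ± 209.1 and 150.97 ± 54.8 CPM (SD over 3, 3 and 4 strains), against 16.1 to 127.5 CPM in clusters 1 to 5. Actc1 is also a gene of some smooth muscle cells, and without it the other 3 genes summed to 367 ± 324, 278.6 ± 245.4 and 98.5 ± 47.5 CPM in those mural clusters and to 10.997 to 105.8 CPM in clusters 1 to 5. Strain values overlapped, and the part of these markers in the comparison of fibroblasts with mural cells was not tested. The 5 fibroblast markers stood at 11878 to 14070 CPM in clusters 1 to 5, which matches their label. The 4 pericyte markers reached 17298 CPM in cluster 8 and the 4 smooth muscle markers 12725 CPM in cluster 7. Cluster 6 had smooth muscle markers at 11449.5 ± 1759 CPM (SD, n = 3 strains), against 44.7 to 823 CPM in clusters 1 to 5. Its fibroblast markers were still at 6274 ± 5385 CPM, with strains from 3108 to 12491 CPM. The mural label of cluster 6 therefore rests on weaker ground.

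Pi16 differed strongly between fibroblasts and mural cells. Summed over all fibroblasts of a strain, it stood at 1038 CPM in C57BL6, 1225 CPM in PdgfrbGFP, 1762 CPM in Cspg4dsRED and 1450 CPM in Acta2GFP. Summed mural cells of the same strains had 16.4, 30.9, 4.69 and 30.2 CPM. The lowest fibroblast value was far above the highest mural value. Among the fibroblast clusters, cluster 4 had the highest mean, 2274 ± 383 CPM (SD, n = 4 strains), followed by cluster 2 with 1353 ± 513 CPM (n = 4) and cluster 5 with 805 ± 54.3 CPM (n = 2). Cluster 1 had 405 ± 241.04 CPM (n = 4) and cluster 3 had 141.3 ± 127.4 CPM (n = 3). The ranges of clusters 4 and 2 overlapped, because the 8 Cspg4dsRED cells of cluster 2 stood at 2037 CPM against 1941 CPM in the 13 cells of cluster 4. In the other 3 strains cluster 4 was the higher. The mural clusters 8, 7 and 6 had 22.9, 17.9 and 17.3 CPM with overlapping ranges.

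Dpp4 was rare and lay mostly in cluster 4. Its level there was 37.4 CPM in C57BL6, 70.8 CPM in PdgfrbGFP, 9.86 CPM in Cspg4dsRED and 66.04 CPM in Acta2GFP, a mean of 46.04 ± 28.3 CPM (SD). Cluster 2 had 3.74, 18.3, 0 and 3.64 CPM in the same strains, and cluster 5 had 1.10 CPM in C57BL6 and 11.4 CPM in PdgfrbGFP. Cluster 4 exceeded cluster 2 in 4 of 4 strains and cluster 5 in 2 of 2, although the range of cluster 4 overlapped that of cluster 2. In all other clusters the mean was at or below 0.486 CPM. Of the 5030 Dpp4 reads in the table, 4134 fell in cluster 4, and 75.8% of those came from 10 cells. In cluster 4, 44 cells (18.9%) had a read and 17 of these had exactly 1, while 17 cells stood at 200 CPM or more. The highest cell reached 1667 CPM. The level thus differed between a few cells with many reads and a majority with none.

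Ly6a (Sca-1) was broad within fibroblasts and weak in 1 of their clusters. Mean levels were 903 ± 165.1 CPM in cluster 4 (SD, n = 4 strains), 741 ± 162.95 CPM in cluster 5 (n = 2), 573 ± 280.8 CPM in cluster 2 (n = 4) and 327 ± 113.2 CPM in cluster 3 (n = 3). Neighbours in that order overlapped in range. Cluster 1 stood apart, with 154.99, 83.6, 1.23 and 113.4 CPM in C57BL6, PdgfrbGFP, Cspg4dsRED and Acta2GFP, all below the lowest value of cluster 3, 197.5 CPM. The value of 1.23 CPM came from 3 cells with 1 read in all. Mural clusters had means of 7.78 to 14.04 CPM. In 60 cells the Ly6a count reached at least 0.5 reads per exon base, with a highest count of 0.917 reads per base. Whether reads at 1 position were collapsed is unclear from the study's methods, and any effect on these high cells was not tested.

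Ly6c1 separated cluster 4 from the rest more sharply than Ly6a did. Cluster 4 had 139.5 CPM in C57BL6, 235.8 CPM in PdgfrbGFP, 193.03 CPM in Cspg4dsRED and 193.9 CPM in Acta2GFP. Cluster 5 had 66.3 CPM in C57BL6 and 111.4 CPM in PdgfrbGFP, so that its range did not overlap that of cluster 4. Cluster 2 followed with 40.6 ± 36.7 CPM (SD, n = 4), and its highest value, 94.7 CPM, was from the 8 cells of Cspg4dsRED. Clusters 3 and 1 had means of 8.46 and 5.61 CPM, and the mural clusters 1.61 to 3.81 CPM. Reads were again concentrated in some cells: 29.2% of the cells of cluster 4 and 13.4% of those of cluster 5 had 200 CPM or more, against 3.20% in cluster 2 and 1.79% in cluster 3.

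Cd34 was the most uniform member among the fibroblast clusters. Its fibroblast clusters ranged from 995 ± 136.6 CPM in cluster 3 (SD, n = 3) and 1269 ± 333 CPM in cluster 1 (n = 4) to 2344 ± 293 CPM in cluster 4 (n = 4). Cluster 4 values were 2140 CPM in C57BL6, 2692 CPM in PdgfrbGFP, 2066 CPM in Cspg4dsRED and 2476 CPM in Acta2GFP, and none overlapped the cluster 2 range of 1515 to 2011 CPM. Among mural clusters, cluster 6 had a mean of 120.8 CPM, cluster 8 of 64.4 CPM and cluster 7 of 28.4 CPM. Strain values in cluster 6 ran from 16.7 to 252.1 CPM, the highest from 3 Acta2GFP cells.

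Cd248 was high in cluster 4 and was also present in mural cells. Cluster 4 had 1344 CPM in C57BL6, 1381 CPM in PdgfrbGFP, 531 CPM in Cspg4dsRED and 1516 CPM in Acta2GFP. The next cluster by mean level was the mural cluster 8, with 631, 464, 425 and 117.2 CPM in the same strains, a mean of 409 ± 214.1 CPM (SD). Cluster 4 exceeded cluster 8 in 4 of 4 strains. Cluster 5 had 395 ± 45.9 CPM (n = 2), cluster 7 had 262.1 ± 210.96 CPM (n = 3), cluster 2 had 194.2 ± 130 CPM (n = 4) and cluster 3 had 151.8 ± 130 CPM (n = 3), and these neighbours overlapped. Cluster 6 (49.8 CPM) and cluster 1 (36.8 CPM) had the lowest means.

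Thy1 followed another order. It was highest in cluster 8, with 93.5 CPM in C57BL6, 55.98 CPM in PdgfrbGFP, 68.5 CPM in Cspg4dsRED and 27.6 CPM in Acta2GFP, a mean of 61.4 ± 27.4 CPM (SD). In every one of the 4 strains cluster 8 exceeded cluster 4, which had 10.3, 11.8, 2.73 and 18.1 CPM. Cluster 7 had a mean of 37.1 ± 48.2 CPM (n = 3) that rested on 92.7 CPM in the 9 cells of PdgfrbGFP. Fibroblast clusters 1 to 5 had means of 3.57 to 14.5 CPM with overlapping ranges. Of the neighbours in their order, only cluster 1 over cluster 3 held in every shared strain, 3 of 3. Per kilobase of exon (RPKM), the scale on which genes can be compared, cluster 4 had 750 for Ly6a, 458 for Cd248, 357 for Pi16, 321 for Cd34, 113.6 for Ly6c1, 7.29 for Dpp4 and 3.58 for Thy1. On the same scale cluster 8 had 157.1 for Cd248 and 20.5 for Thy1, and at most 11.7 for each of the other 5.

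**Figure D1:**
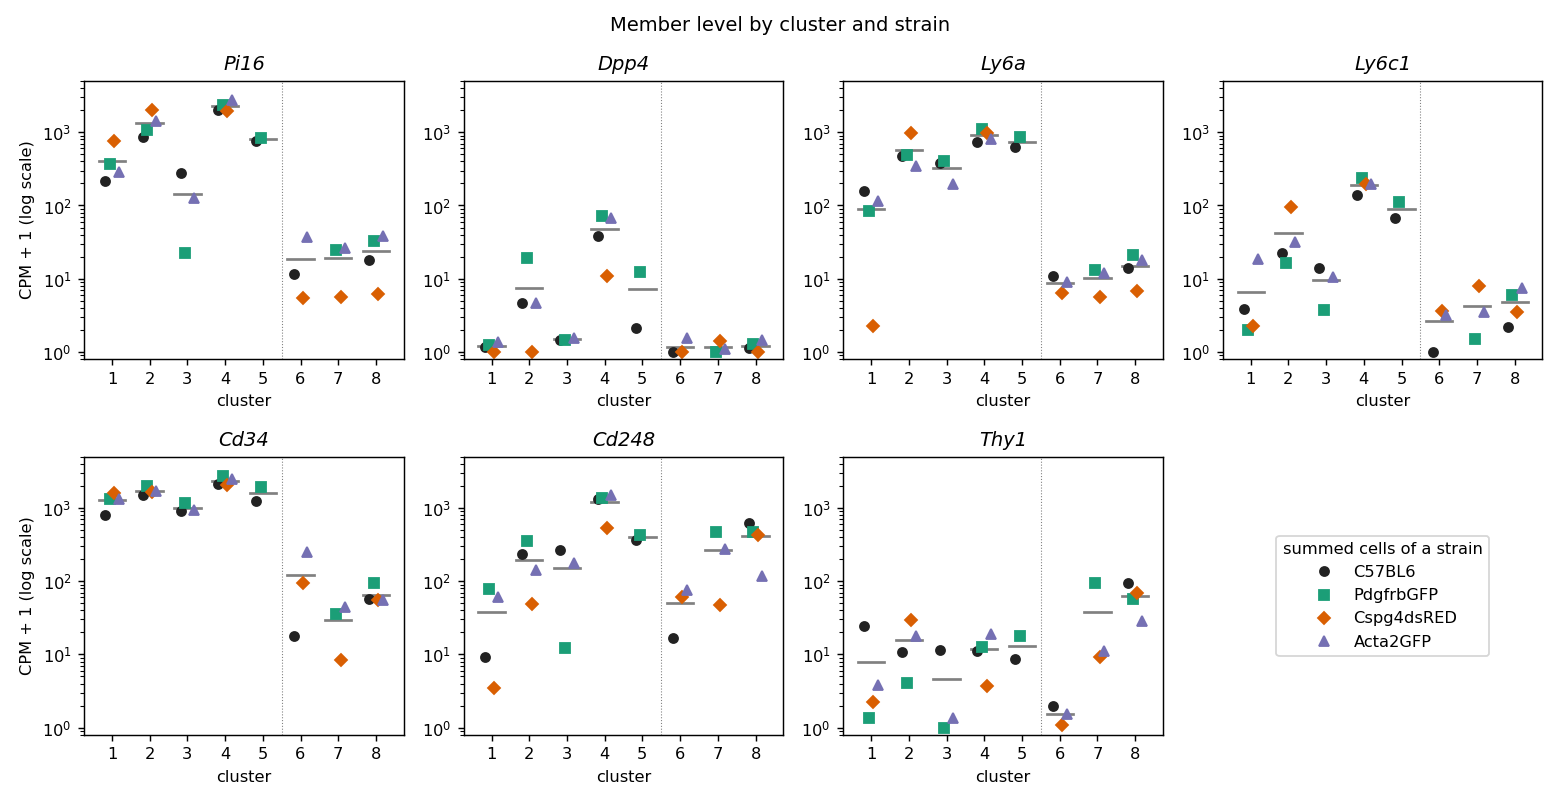
Level of each member in CPM plus 1 on a log axis, by cluster 1 to 8, with 1 symbol for the summed cells of a strain (3 or more cells) and a grey bar for the mean over strains. Cluster 4 is highest for 6 members, while Thy1 is highest in cluster 8, where its 4 strains run from 27.6 to 93.5 CPM.

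Fibroblasts and mural cells were compared to see which of these antigens separate the 2 lineages. Pi16, Dpp4, Ly6a, Ly6c1 and Cd34 were higher in fibroblasts, whereas Cd248 and Thy1 did not pass the test. Counts were summed per strain and lineage and tested with edgeR's quasi-likelihood F test, adjusted by Benjamini-Hochberg over 15117 genes. At an adjusted p under 0.05, 5 of 7 members were called, all higher in fibroblasts, against 5.93% of all genes tested, 3.47% called higher and 2.45% called lower in fibroblasts. The log2 fold change was 6.01 ± 0.62 (SE, adjusted p = 0.000514) for Pi16, 5.67 ± 0.51 (0.000349) for Ly6a, 4.82 ± 0.35 (0.000112) for Cd34 and 4.70 ± 0.57 (0.00131) for Ly6c1. For Dpp4 it was 6.32 ± 1.06 with an adjusted p of 0.00715. Mural cells held 1, 5, 7 and 5 Dpp4 reads in C57BL6, PdgfrbGFP, Cspg4dsRED and Acta2GFP, under the minimum count of 10, so Dpp4 was tested only because it is high in fibroblasts, the size of its fold depends on these few reads, and its call is no support for the count of members. Without PdgfrbGFP the adjusted p of Dpp4 was 0.0582, and without Acta2GFP 0.0625. All 4 strains showed each of these 5 differences.

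Cd248 and Thy1 had other patterns between the lineages. Cd248 stood at 573, 617, 258.5 and 561 CPM in the fibroblasts of C57BL6, PdgfrbGFP, Cspg4dsRED and Acta2GFP, and at 541, 465 and 121.4 CPM in the mural cells of the first 3. The mural cells of Acta2GFP held 4183 Cd248 reads among 20504937, or 78.3 RPKM against 215.5 RPKM in the fibroblasts of that strain. The fibroblast value was the higher in 4 of 4 strains, with overlapping groups. The log2 fold change, 0.57 ± 0.50 (SE, adjusted p = 0.671), was about the size of its error. Thy1 had 9.82, 10.16, 13.6 and 12.1 CPM in fibroblasts and 80.03, 59.6, 17.1 and 15.02 CPM in mural cells. The mural value was the higher in 4 of 4 strains, and the groups did not overlap. Its log2 fold change was -1.96 ± 0.66 with an adjusted p of 0.139, and DESeq2 gave -2.04 with an adjusted p of 0.0125. Cluster 8, where Thy1 was highest, made up most mural cells of C57BL6 and PdgfrbGFP but a minority in Cspg4dsRED and Acta2GFP. The part of this mix in the spread between strains was not tested, for Thy1 or for Cd248. The median log2 fold change was 4.82 over the 7 members and -0.02 over all genes tested.

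**Figure D2:**
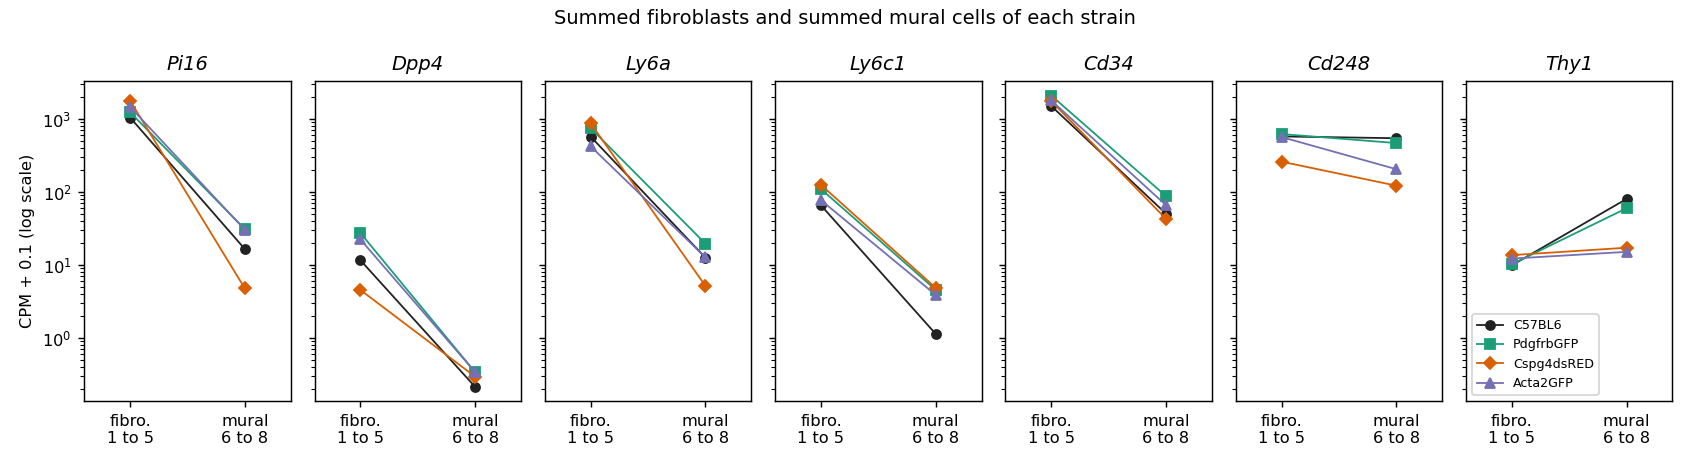
Level of each member in CPM plus 0.1 on a log axis, in summed fibroblasts (clusters 1 to 5) and summed mural cells (clusters 6 to 8), with a line for each strain. Lines fall steeply for Pi16, Dpp4, Ly6a, Ly6c1 and Cd34, fall less for Cd248 and rise for Thy1 in all 4 strains.

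Low levels of the fibroblast members were present in mural cells. Among the 353 mural cells, those with a Pi16 read had a median of 4 reads. Pi16 reached 20 CPM in 37.8% of mural cells in C57BL6, 67.2% in PdgfrbGFP, 68.6% in Acta2GFP and 6.57% in Cspg4dsRED, which lowered the share over all mural cells to 40.8%. In 100% of the mural wells that could be compared, the count was at most 5% of the highest fibroblast count in a well of the same plate row or column. For Ly6a this held in 98.6% of such wells, for Cd34 in 96.3%, for Dpp4 in 88.9% of its 9 wells and for Ly6c1 in 83.3%. It held in 66.5% of wells for Cd248 and in 20.2% for Thy1. What part reads from neighbouring wells have in these low mural levels was not tested.

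Other genes listed with the members were compared in the same fit. Of 17 further genes of adventitial fibroblasts, 8 were higher in fibroblasts, 0 lower and 9 not called, and the median log2 fold change of those tested was 2.62. Scara5, a scavenger receptor for ferritin, was higher by 6.59 ± 0.66 on the log2 scale (adjusted p = 0.000476), and Cd55, a complement inhibitor, by 5.60 ± 0.43 (0.000118). Emilin2, an elastic fibre glycoprotein, and Gfpt2, of the hexosamine pathway, rose by 5.63 ± 0.85 (0.00434) and 5.21 ± 0.36 (9.94e-05). Of 10 genes of parenchymal fibroblasts, 7 were higher and 0 lower, among them the chemokine Cxcl14 with 6.01 ± 0.71 (0.00106) and the matrix protein gene Smoc2 with 5.65 ± 0.63 (0.000735). Of 13 other stromal surface antigens, 4 were higher and 1 was lower. Tissue factor F3 was higher by 4.98 ± 0.57 (0.000868), while Mcam, an adhesion molecule of mural cells, was lower (-6.13 ± 1.25, 0.0171). Nt5e, the ecto-nucleotidase CD73, was among the 4 called higher (6.21 ± 0.99, 0.00536), but mural cells held only 25 of its reads, 2 to 17 per strain, so that its test rested on the fibroblast side as that of Dpp4 did, and it is no support for that count. In the Ly6 family 3 of 8 further genes had enough reads to be tested, and Ly6e was higher by 2.36 ± 0.47 (0.0146).

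Cluster 1 was compared with clusters 2 to 5 to see whether the antigens were lower there. Cluster 1 also stood apart in the 4 valve markers Wif1, Comp, Fmod and Scx, which summed to 5103 ± 947 CPM (SD, n = 4) against 31.4 to 370 CPM in clusters 2 to 5. Every member had a negative log2 fold change, and only Pi16 passed the edgeR test. Pi16 stood at 212.3, 372, 753 and 281.8 CPM in cluster 1 of C57BL6, PdgfrbGFP, Cspg4dsRED and Acta2GFP. Its log2 fold change was -1.92 ± 0.37 (SE, adjusted p = 0.0341), and 1 of 7 members was therefore called, beside 1.33% of 13201 genes tested, 0.773% called lower and 0.561% called higher. Dpp4 (-6.26 ± 1.37, adjusted p = 0.0512), Cd248 (-3.85 ± 0.85, 0.0523) and Ly6c1 (-4.17 ± 0.94, 0.0549) missed the threshold. The Ly6c1 value ran from -5.95 to -3.70 when 1 strain was left out. Ly6a had -2.97 ± 0.80 (0.115), Cd34 had -0.54 ± 0.25 (0.574) and Thy1 had -0.82 ± 1.28 (0.995), a value that ran from -3.20 to -0.43 when 1 strain was left out. The median over the members was -2.97, against -0.03 over all genes tested. With the strain as replicate block, Pi16 (-2.03, adjusted p = 0.0210) and Cd248 (-4.67, 0.0443) passed. DESeq2 called 5.22% of genes and 5 of 7 members, with adjusted p of 7.55e-05 for Ly6c1, 0.000304 for Cd248, 0.00359 for Pi16 and 0.0131 for Ly6a, and Dpp4 as the fifth. Sums per plate called 4 members, Pi16, Dpp4, Ly6a and Cd248. Cluster 1 held only 7 Dpp4 reads in all, so Dpp4 was tested there only because it is high in clusters 2 to 5, and its calls are no support for these counts.

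The call on Pi16 in cluster 1 was lost in 4 of the alternatives. Without C57BL6, PdgfrbGFP or Acta2GFP its adjusted p was 0.134, 0.182 and 0.165, with log2 fold changes of -1.85, -1.95 and -1.74. Summed endothelial markers were at 83.1 ± 65.5 CPM (SD, n = 4) in cluster 1, and without the cells at 100 CPM or more of these markers, 9 of the 70 among them, Pi16 had -2.15 with an adjusted p of 0.0526. That removal left Cspg4dsRED with under 3 cells in cluster 1, so the strain dropped out of the fit as well, and without Cspg4dsRED alone Pi16 had -2.24 with an adjusted p of 0.0270. Ly6a passed in both, with adjusted p of 0.0222 and 0.0189. The direction held in each case. Of the adventitial list, 16 genes were tested, 3 were lower and 0 higher: Scara5 (log2 fold change -6.82 ± 0.68, SE, adjusted p = 0.00102), Emilin2 (-6.55 ± 0.91, 0.00590) and Cd55 (-5.13 ± 0.65, 0.00298). Cluster 1 held only 31 reads of Emilin2, 0 to 22 per strain, so its test rested on clusters 2 to 5, where it is high, and it is no support for the count of 3. Of the parenchymal list 4 of 10 were lower and 1 higher, with Cxcl14 at -6.21 ± 0.50 (0.000248) and Ptn, a heparin-binding growth factor gene, at 3.36 ± 0.59 (0.0221). The hyaluronan receptor gene Cd44 was the 1 surface antigen of 12 tested that was called, higher by 3.16 ± 0.47 (0.00784), and 0 of 2 Ly6 genes tested were called.

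Clusters 2 to 5 were each compared with the remaining ones of these 4, to see which group of fibroblasts carries the antigens. The mix of the remaining clusters differed between strains. Of the cells set against cluster 4, cluster 5 gave most in PdgfrbGFP and few in Cspg4dsRED and Acta2GFP. The part of this mix in the spread between strains, and so in the missing calls, was not tested. In cluster 4, 6 of 7 members had positive log2 fold changes, yet none passed the adjusted threshold. Estimates were 3.29 ± 1.23 for Dpp4 (SE, adjusted p = 0.901), 2.43 ± 0.60 for Cd248 (0.336), 1.82 ± 0.41 for Ly6c1 (0.251), 1.05 ± 0.27 for Pi16 (0.358), 0.61 ± 0.21 for Cd34 (0.798) and 0.59 ± 0.32 for Ly6a. Thy1 had -0.44 ± 0.83. No gene of 14104 tested was called in cluster 4 by edgeR, a share of 0%. An unadjusted p under 0.05 was found for 670 genes (4.75%), with 5 members among them. DESeq2 called 1.29% of genes, among them Cd248 (adjusted p = 0.00323) and Ly6c1 (0.00461). The smallest adjusted p of the blocked fit among the members was 0.110, for Cd248.

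**Figure D3:**
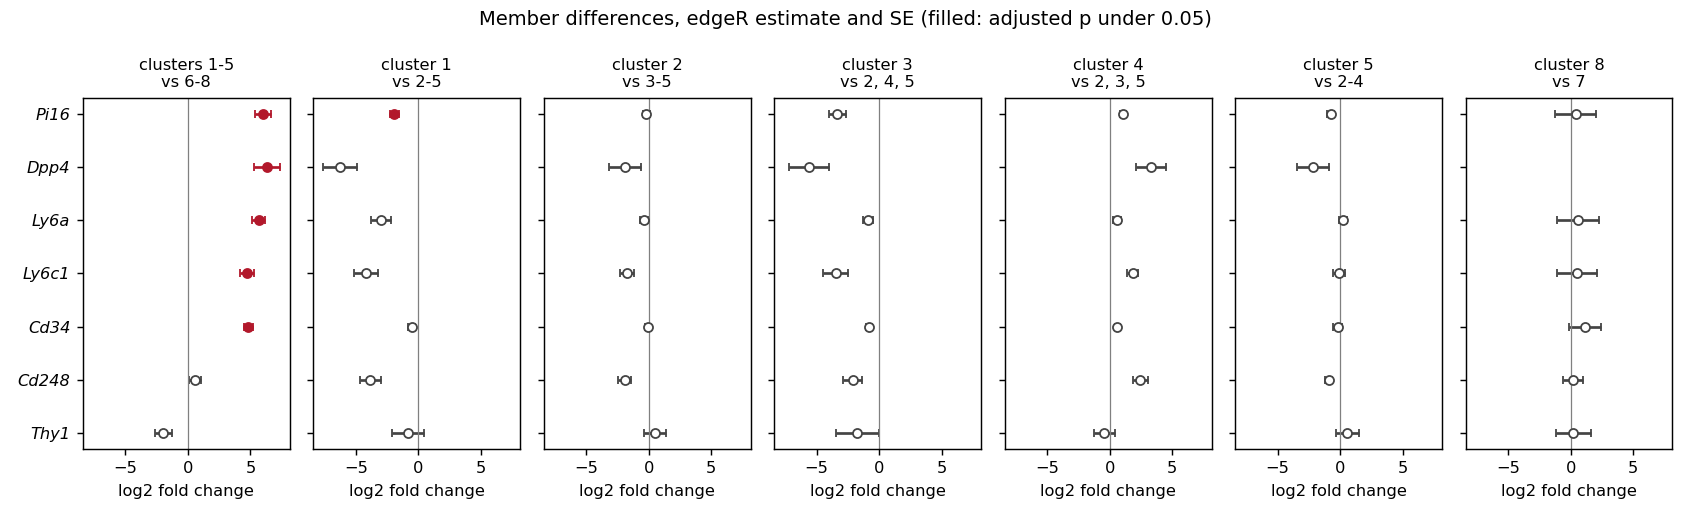
The log2 fold change of each member in the 7 comparisons by edgeR, with the standard error as a bar and filled red points for an adjusted p under 0.05. In clusters 1 to 5 against 6 to 8, 5 members are called, in cluster 1 only Pi16 is, and in cluster 4 the estimates lie right of 0 for 6 of 7 members without a call.

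Endothelial cells also express Ly6a, Ly6c1 and Cd34, so their markers are given beside the cluster 4 values. The 7 markers summed to 60.1 ± 44.4 CPM (SD, n = 4) in cluster 4 and to 32.3 ± 27.6 CPM (n = 3) in cluster 3. They summed to 12.8 ± 6.68 CPM (n = 2) in cluster 5 and to 7.84 ± 3.43 CPM (n = 4) in cluster 2. Pecam1 was at 52.3 CPM over all cells of cluster 4 and at 68.2 CPM over those of cluster 3. The junction genes Cdh5 and Cldn5 were at 0.330 and 1.28 CPM in cluster 4. With the 27 cells of cluster 4 at 100 CPM or more left out, mean levels there were 192.9 CPM for Ly6c1, 906 CPM for Ly6a and 2338 CPM for Cd34, and the log2 fold changes were 1.78, 0.52 and 0.57. The levels in cluster 4 were about as high without these cells.

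The gene lists described above had estimates on opposite sides of 0 in cluster 4, with no call in any list. Of 16 adventitial genes tested, 15 had a positive log2 fold change and the median was 1.39. Of 10 parenchymal genes, 9 were negative with a median of -0.85, and the median of all genes was 0.00. The 13 surface antigens had 6 positive and 7 negative values and a median of -0.07, and the 3 Ly6 genes tested had 1 positive and 2 negative values. Of the adventitial genes 10 had an unadjusted p under 0.05 and of the parenchymal genes 4. Sema3c, a secreted guidance cue, had the highest value of the adventitial list, 3.86 ± 0.79 (adjusted p = 0.179), and Hsd11b1, which reactivates glucocorticoids, the lowest of the parenchymal list, -2.48 ± 0.30 (0.0670), both singled out after their values were seen.

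**Figure D4:**
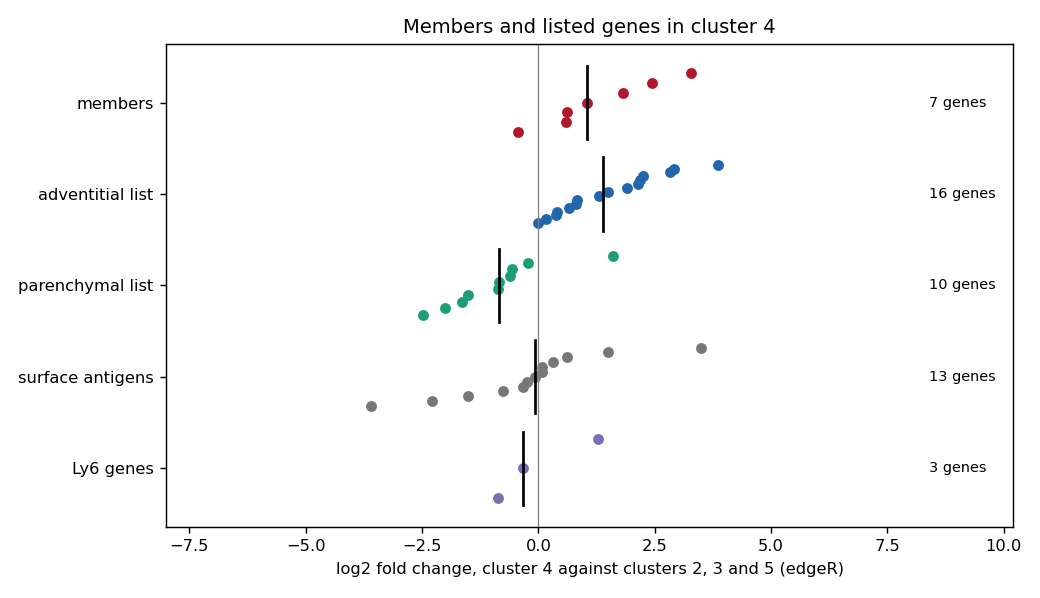
The log2 fold change of cluster 4 against clusters 2, 3 and 5 by edgeR, with 1 point for each of the 7 members, 16 adventitial, 10 parenchymal, 13 surface antigen and 3 Ly6 genes tested and a black line for the median of each row. Medians are 1.05 for the members, 1.39 for the adventitial and -0.85 for the parenchymal genes, and none of these genes was called.

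Cluster 3 had low estimates throughout. All 7 members had negative log2 fold changes against clusters 2, 4 and 5, ranging from -5.62 ± 1.57 for Dpp4 and -3.50 ± 1.00 for Ly6c1 to -0.83 ± 0.24 for Cd34, and none passed (adjusted p 0.306 to 0.999). The size of the Dpp4 value depends on few reads in cluster 3, most of them from C57BL6. Nearly all Thy1 reads of cluster 3 came from that strain too. Pi16 was at 275.2 CPM in C57BL6, 21.7 CPM in the 7 cells of PdgfrbGFP and 126.8 CPM in Acta2GFP, and had -3.36 ± 0.67. The edgeR test called 0 of 14803 genes, 0%, with 895 genes (6.05%) and 6 members at an unadjusted p under 0.05. DESeq2 called 387 genes (2.61%) and 3 members. Dpp4 is no support for these counts of members, nor for the count of 7 negative values. With the strain as replicate block, 35 genes passed, and Pi16 (-3.86, adjusted p = 0.0156) and Cd34 (-0.83, 0.00693) were among them. Of the 16 adventitial genes tested in cluster 3, 14 were negative, with a median of -1.26.

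Clusters 2 and 5 showed smaller member differences. In cluster 2, 6 of 7 estimates were negative, led by Dpp4 (-1.92 ± 1.26) and Cd248 (-1.92 ± 0.53). When 1 strain was left out, Dpp4 ran from -3.18 to -1.30 and Cd248 from -2.40 to -1.56. Pi16 and Cd34 were at -0.19 ± 0.27 and -0.11 ± 0.20. No gene of 13870 was called, 0%, with 641 genes (4.62%) and 2 members at an unadjusted p under 0.05. DESeq2 called 1.22% of genes and, of the members, Cd248 (adjusted p = 0.0259). In cluster 5, tested in 2 strains only, 5 of 7 estimates were negative and ran down to -2.20 ± 1.26 for Dpp4. Again 0 of 16214 genes were called, 0%, with 630 genes (3.89%) and 2 members at an unadjusted p under 0.05. DESeq2 called 0.789% of genes and 0 members. Parenchymal genes had positive values in 7 of 10 cases in cluster 2 and in 10 of 10 in cluster 5, with medians of 0.70 and 0.69.

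Pericyte-like cluster 8 was compared with smooth muscle-like cluster 7, since Thy1 and Cd248 had mural levels above those of some fibroblast clusters. Neither differed beyond its error: Thy1 had a log2 fold change of 0.22 ± 1.39 (SE, adjusted p = 0.996) and Cd248 of 0.19 ± 0.82 (0.996). Thy1 was at 55.98 and 92.7 CPM in clusters 8 and 7 of PdgfrbGFP, at 68.5 and 8.26 CPM in Cspg4dsRED and at 27.63 and 10.203 CPM in Acta2GFP, so the direction was not the same in all 3 strains. Dpp4 had too few reads to be tested, and 0 of the other 6 members were called, beside 0.194% of 11867 genes, 0.0843% higher and 0.11% lower. No member had an unadjusted p under 0.05, and DESeq2 called 0 members. Without Cspg4dsRED the Thy1 estimate became -0.52 and that of Cd248 -0.50.

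Cells were also counted by whether a member reached 20 CPM in them. In cluster 4, 97.9% of cells reached it for Pi16, 99.1% for Cd34, 88% for Ly6a, 83.7% for Cd248, 46.8% for Ly6c1, and 10.3% each for Dpp4 and Thy1. For Ly6c1 the shares were 16.4% in cluster 5, 9.59% in cluster 2, 5.36% in cluster 3 and 4.29% in cluster 1, with 1.98% in mural cells as background. For Cd248 they were 43.8%, 39.3%, 40.2% and 27.1% in those clusters and 58.2% in cluster 8. Dpp4 reached 20 CPM in 32 cells of the whole table, 24 of them in cluster 4, and in 0 of 353 mural cells. Of the cells in which Thy1 reached it, 44.8% were in cluster 8. After each cell was thinned to 46000 counts, the expected share with a read was 48.9% in cluster 4 and 10.6 to 21.8% in clusters 1, 2, 3 and 5 for Ly6c1, and for Thy1 34.3% in cluster 8 against 4.13 to 14.1% in the fibroblast clusters. Median depth was 349816 counts in cluster 4 and 167874 in cluster 8.

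The antigens also met in the same cells. At 20 CPM or more, the median cell of cluster 4 carried 4 of the 7, against 3 in clusters 2, 5 and 8, 2 in clusters 1 and 3 and 1 in clusters 6 and 7. At least 5 were found in 47.2% of the cells of cluster 4, compared with 10.96% in cluster 5, 7.76% in cluster 2, 4.46% in cluster 3 and 1.43% in cluster 1. By strain, that share of cluster 4 ranged from 38.6% (C57BL6) over 46.2% (Cspg4dsRED) and 49.1% (PdgfrbGFP) to 72.5% (Acta2GFP), and that of cluster 2 from 4.03% (C57BL6) over 6.12% (PdgfrbGFP) and 18.4% (Acta2GFP) to 25% (Cspg4dsRED). All 7 antigens together were seen in 6 cells, each of cluster 4. Of the 32 fibroblasts with Dpp4, 32 also had Cd34, 31 had Ly6a, 30 had Pi16, 29 had Cd248 and 19 had Ly6c1, where 96%, 73.3%, 81.1%, 51.1% and 20.2% of all 926 fibroblasts had them. Of these 32 cells 24 were in cluster 4, where the antigens were frequent in any case: all 24 had Cd34, Pi16, Ly6a and Cd248 and 16 had Ly6c1, against 99.1%, 97.9%, 88%, 83.7% and 46.8% of all cells of cluster 4. Of the 56 fibroblasts with Thy1, 82.1% had Pi16 and 55.4% had Ly6c1, against 81.1% and 20.2% of all fibroblasts, so for Pi16 the shares were alike.

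**Figure D5:**
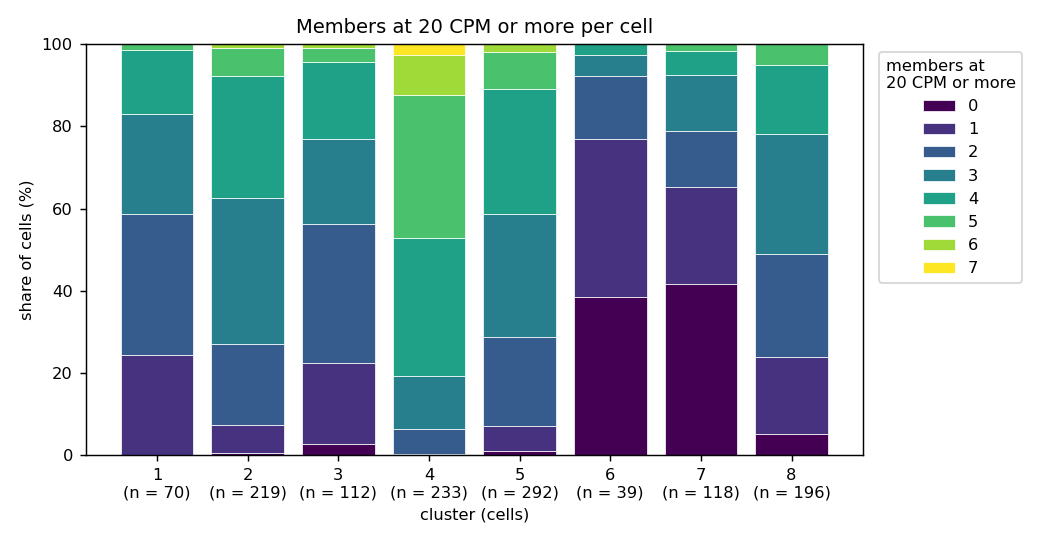
Share of cells in percent by the number of members, 0 to 7, that reach 20 CPM in the cell, for clusters 1 to 8 with their cell numbers. Cluster 4 has the largest share at 5 or more, 47.2%, and clusters 6 and 7 the largest at 0.

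Strains differed most for Dpp4, Thy1 and Cd248 in cluster 4. There the highest strain was 1.30 times the lowest for Cd34, 1.43 times for Pi16, 1.49 times for Ly6a and 1.69 times for Ly6c1. The same ratio was 2.85 for Cd248, 6.63 for Thy1 and 7.18 for Dpp4, and for these 3 the lowest strain was Cspg4dsRED with 13 cells. Both C57BL6 plates with enough cells could be set side by side in cluster 4, with 69 and 58 cells. They had 2143 and 2135 CPM for Cd34, 138.3 and 141.3 CPM for Ly6c1, 1365 and 1313 CPM for Cd248, 775 and 684 CPM for Ly6a, 1733 and 2420 CPM for Pi16, 12.5 and 7.00 CPM for Thy1 and 15.5 and 69.4 CPM for Dpp4. In cluster 4 the plates were close for Cd34, Ly6c1 and Cd248 and furthest apart for Dpp4. In cluster 2 the same plates had 6.33 and 0.0627 CPM for Dpp4, 15.7 and 1.504 CPM for Thy1, 10.6 and 37.4 CPM for Ly6c1, 144.5 and 372 CPM for Cd248, 609 and 1275 CPM for Pi16 and 409 and 580 CPM for Ly6a, while Cd34 had 1490 and 1581 CPM. Reporter strains had 1 plate each, and no test of the strain was run.

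The genes most like each member were ranked over the 17 cluster-by-strain sums of clusters 1 to 5, by Pearson's r of log2(CPM + 1) among 10057 genes. These sums share plates and depth, and r is given as a description. Dpp4 was most like Efhd1os (r = 0.89), Mfap5 (0.88) and Efhd1 (0.86), and the latter 2 are on the adventitial list. Cd34 was most like Gm16897 (0.97), its antisense neighbour described above, then Fbln2 (0.89) and Lpar1 (0.88). Ly6a was most like Igfbp6 (0.98), Prcd (0.95) and Selenbp1 (0.95), followed by the surface antigen F3 (0.95). Pi16 was nearest to Fam20c (0.91) and Wdr54 (0.90), Ly6c1 to Thbd (0.90) and C2cd2 (0.87), and Cd248 to Palm (0.91) and Emilin2 (0.88). Thy1 was nearest to Pan2 (0.90) and Gnptg (0.89). No gene of the adventitial list was among the nearest 5 of Thy1, nor among those of Pi16, Ly6a or Cd34.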

How the data were processed

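Hearts were dissociated (elastase was added for Acta2GFP), and cells were sorted into 384-well plates for Smart-seq2. The deposited values are raw read counts per gene and cell, made by the authors with Bowtie-based alignment to GRCm38 and featureCounts; annotation release and strand setting are not given in the sources used here. Spike-ins (92 rows, 1.82% of counts) were left out, 46005 of 46517 genes were named with GENCODE release M21, and 0 columns were unused.

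Counts were summed per strain and cluster, or side of a comparison, where at least 3 cells were present, and given as CPM. edgeR 4.0.16 (quasi-likelihood F test, TMM, filterByExpr at a minimum count of 10, R 4.3.3) tested all genes, adjusted by Benjamini-Hochberg at 0.05, and SE was the log2 fold change over the root of F. Scripts were tested on simulated data. Alternatives were DESeq2 1.42.0, its size factors, no filter, strain as replicate block, sums per plate, and cells, clusters or strains left out. Both sides of a comparison came from the same strains, whose deviations correlated at 0.0227 to 0.271. In 23 of 24 cases the correlation was highest with the other side of the same strain. The main fit had no strain term and so left this pairing out, while the fit with strain as replicate block takes it in. Strains are the replicates, and p-values measure only the spread between these samples, which may be technical. Sums over several clusters also differ between strains in the mix of those clusters.

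The members and lists were chosen with earlier results of these data known. Named genes were the members, up to 4 called genes of a list by largest absolute log2 fold change, and the 5 genes most like each member. Depth sets counting precision, which covers counting error only.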

Additional observations from a re-analysis of the deposited data

Results flagged for a closer look

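In 3 of 28 groups of 4 strains, 1 strain lay far from the others, and chance gives about 1 such group in 20. Ly6c1 stood at 17.4 CPM in the cluster 1 cells of Acta2GFP, against 0.991 to 2.87 CPM in the other 3 strains. Cd34 stood at 93.1 CPM in the cluster 8 cells of PdgfrbGFP, against 54.07 to 55.99 CPM, with a median cell at 41.4 CPM and the highest cell at 3606 CPM. Thy1 stood at 23.2 CPM in the cluster 1 cells of C57BL6, against 0.372 to 2.83 CPM, and rested on 4 of 19 cells with a read, the highest at 700.04 CPM.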

How the results depend on the processing

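Of the member fold changes under the alternatives, 407 kept direction and side of the threshold, 21 passed it newly, 6 lost it and 12 reversed, and the cause was not tested. Gene calls are given as percent of genes tested. DESeq2 called 12.7% between fibroblasts and mural cells, 5.22% in cluster 1, 1.22% in cluster 2, 2.61% in cluster 3, 1.29% in cluster 4, 0.789% in cluster 5 and 3.20% in cluster 8 against 7, with 5, 1, 3 and 2 members in clusters 1 to 4. Without a filter, 0.00791% were called in cluster 2, 0.0359% in cluster 3 and 0.732% in cluster 8 against 7, with 2 members in cluster 1 and 1 in cluster 3. With the strain as replicate block, 0.742% of genes and 2 members were called in cluster 1, 0.236% and 2 members in cluster 3 and 0.691% in cluster 8 against 7, and no other member call changed. Sums per plate called 4 members in cluster 1 and 0.176%, 0.135%, 0.159% and 0.00672% of genes in clusters 2 to 5. Without cells at 100 CPM of endothelial markers, 0.665% were called in cluster 1 (where Cspg4dsRED dropped out too) and 0.0144% in cluster 4. DESeq2 size factors called 0.379% in cluster 8 against 7.

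Leaving out 1 strain gave 2.66% (without PdgfrbGFP) to 3.91% (without Cspg4dsRED) of genes between fibroblasts and mural cells, 0.201% (without Acta2GFP) to 0.748% (without Cspg4dsRED) and 0 to 2 members in cluster 1, 0% to 0.00657% in cluster 4 (highest without Cspg4dsRED) and 0% (without PdgfrbGFP) to 0.987% (without Acta2GFP) in cluster 8 against 7. Cluster 5, in 2 strains, allowed no such test. Thy1 ran from -3.20 (without C57BL6) to -0.43 in cluster 1, from -5.78 (also without C57BL6) to -1.01 in cluster 3, from -0.27 (without Cspg4dsRED) to 1.06 in cluster 2, and from -0.84 to 0.29 (without Cspg4dsRED) in cluster 4. In cluster 8 against 7, leaving out 1 strain gave -0.52 to 2.39 for Thy1 and -0.50 to 0.77 for Cd248, both lowest without Cspg4dsRED, and -0.0652 to 1.87 for Ly6c1, lowest without Acta2GFP. There DESeq2 gave -0.0526 for Pi16, -0.38 for Cd248 and -0.48 for Thy1, its size factors gave -0.0571, -0.38 and -0.48, and Ly6c1 became -0.45 without the endothelial-marker cells. Depth limits Dpp4 most, with 18 reads in mural cells, 15 in cluster 3 and 7 in cluster 1, so its calls there are no support for counts of members.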
